A study of Homo sapiens with 5 samples.

Results

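Expression was compared between TF-1 cells that expressed DbSCL, a form of the transcription factor SCL that is defective in binding DNA, and TF-1 cells with the empty vector, both under Steel factor (SF). The comparison was made by subtracting the log2 signal of the vector SF array from that of the DbSCL SF array, for all probe sets that carry a single gene symbol and are no array control. These were 19065 of 22283 probe sets, which stand for 11963 genes. Of those genes, 8450 had a signal above the floor of 4.45 (log2) on at least 1 of the 2 arrays and were compared. TF-1 is an established human erythroleukaemia line that depends on GM-CSF and serves as a model of erythroid progenitors. The series holds 5 arrays, 1 for each group. All cells were kept in medium with 10% fetal calf serum and 5 ng/mL human GM-CSF, were deprived of growth factor overnight, and were then stimulated for 6 h. Vector cells carried the retrovirus MSCV-GFP and received GM-CSF (5 ng/mL), SF (20 ng/mL) or Epo, at a dose that the labels do not state. DbSCL cells carried the same GFP-marked retrovirus with DbSCL, and received SF (20 ng/mL) or Epo. No group went without cytokine, the cells keep their own SCL, and whether a cell population was a pool or a clone is not given in the sources used here. With 1 array per group no difference had a replicate check, and no test was possible. The spread of a single difference, estimated without replicates, ran from 0.14 log2 for weak genes to 0.24 for bright ones.

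SCL, encoded by TAL1, is a basic helix-loop-helix factor that pairs with E proteins such as those of TCF3 and TCF12 and binds E-box sequences. In erythroid cells it sits in a complex with LMO2, LDB1 and GATA1 that occupies E-box and GATA elements. A form that cannot bind DNA can still take up such partners. Steel factor binds and activates c-Kit, a receptor tyrosine kinase on which early erythroid progenitors and mast cells depend. The study asked which genes depend on SCL by comparing DbSCL with vector cells under the same cytokine.

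Controls differed between the compared arrays as well. The hybridization controls, 18 probe sets added to each array, were on average 0.55 log2 higher on DbSCL SF than on vector SF. For beta-actin, the 3′ probe set exceeded the 5′ one by 1.89 log2 on vector SF and by 3.33 on DbSCL SF, and for GAPDH by 1.58 and 2.53. The differences of the 3 beta-actin control probe sets were −1.52 at the 5′ end, −0.71 in the middle and −0.08 at the 3′ end. Under Epo the 3′ minus 5′ values of DbSCL and vector cells differed by 0.27 for beta-actin and 0.39 for GAPDH. The part of these control differences in the results was not tested. All 8 erythroid markers that could be matched to a single symbol were above the floor, among them HBD, KLF1 and GATA1. Markers of other cell types were above the floor in part: 4 of 7 monocyte and granulocyte markers (MPO, LYZ, CEBPE and ITGAM), 5 of 7 lymphoid ones (CD3D, CD3E, CD79A, CD2 and CD7), 4 of 5 endothelial ones (PECAM1, PLVAP, TEK and KDR) and 3 of 5 fibroblast ones (COL1A1, COL1A2 and DCN). At the floor were ELANE, CD14 and CSF1R of the first of these, MS4A1 and LCK of the lymphoid, CDH5 of the endothelial and COL3A1 and LUM of the fibroblast markers. Megakaryocyte markers were above it in 4 of 6 and mast cell and basophil markers in 5 of 6. Of all 11963 genes, 8450 were above the floor on at least 1 of the 2 arrays. A marker above it is thus no sign of a cell type by that alone. Above a signal of 6 (log2) were 7 erythroid, 3 megakaryocyte and 3 mast cell and basophil markers. Of the monocyte and granulocyte, lymphoid, endothelial and fibroblast markers, 1, 1, 2 and 1 were. The sum of the log2 levels of the 8 erythroid markers was 58.4 on vector SF and 57.4 on DbSCL SF. Their median difference was 0.05, and HBD, at −1.04, was the 1 marker past 1.5-fold, so the lower sum is no general fall.

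Nearly all genes past 2-fold were lower in DbSCL cells. In DbSCL cells 29 genes were 2-fold or more lower (0.343% of genes compared) and 1 was higher (0.0118%), with folds of 2.01 to 3.41 among the lower ones. They included TUBB2A of the tubulins, ID2 of the helix-loop-helix inhibitors, the globin gene HBD, the leukocyte phosphatase gene PTPRC and the water channel gene AQP3. At 1.5-fold, 311 genes were lower (3.68%) and 120 were higher (1.42%). The share of lower genes among those past 1.5-fold was 72.2%, and with each array centred on its own median it was 82.8% (391 lower and 81 higher). After quantile normalization it was 66.5% (264 lower and 133 higher). The median difference over all genes compared was 0. Among the 29 lower genes the DbSCL SF signal was the lowest of the 5 arrays in 28, the exception being RCBTB1, and the vector SF signal was the highest in 13. The same places were held by 17.7% and 9.47% of all genes compared, and choosing genes by this difference favours both. The least different genes that counted were LIN7C (−1.02), NSL1 (−1.02) and MBD4 (−1.01), and those just short of 2-fold, taken by that position alone, were TSNAX (−0.99997), RRM2 (−0.9998) and PREPL (−0.9990). Values of the 5 arrays are given from here on in the order vector GM-CSF, vector SF, DbSCL SF, vector Epo and DbSCL Epo.

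**Figure D1:**
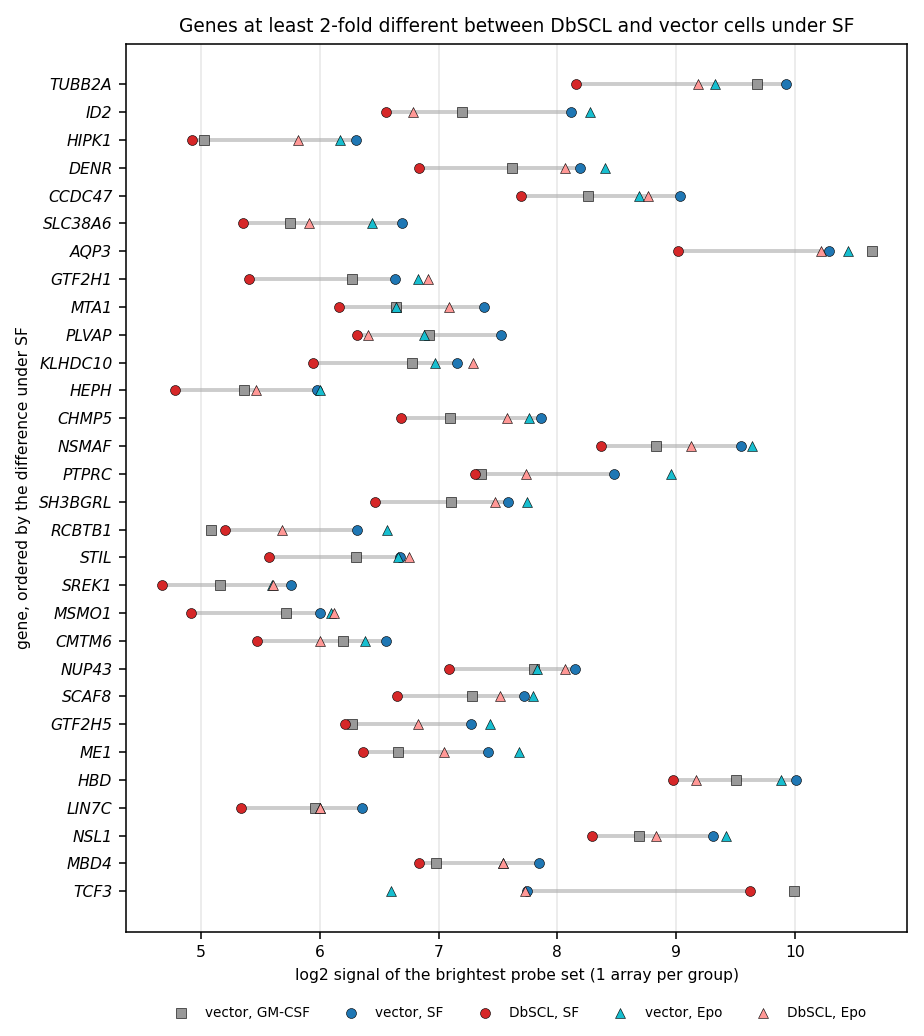
Log2 signal of the brightest probe set (horizontal axis) of each gene that was 2-fold or more different between DbSCL and vector cells under SF, with 1 symbol for each of the 5 arrays and a bar joining vector SF and DbSCL SF. In 28 of the 29 lower genes the red DbSCL SF point lies furthest left, while TCF3 lies high on the vector GM-CSF and DbSCL SF arrays.

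ID2 encodes a helix-loop-helix protein without a basic region that takes up E proteins and keeps them from DNA. Its log2 signals were 7.20, 8.11, 6.56, 8.28 and 6.79 on the 5 arrays. Both DbSCL arrays lay below all vector arrays, and the difference was −1.56 (2.94-fold lower) under SF and −1.49 under Epo. A second ID2 probe set gave −0.67 under SF and −0.75 under Epo. Of the 6 compared genes of ID and related helix-loop-helix inhibitors, 2 were 1.5-fold lower and 0 higher, with a median of −0.18. The other one was BHLHE40, a repressor of the basic helix-loop-helix family, with signals of 6.06, 6.52, 5.53, 6.81 and 6.00. It differed by −0.99 under SF and −0.81 under Epo, while its second probe set gave 0.07 and −0.05. ID1, named after its values were seen, differed by −0.23 under SF and −0.54 under Epo. ID3 lay at the floor on all arrays.

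PTPRC encodes CD45, the receptor tyrosine phosphatase of leukocytes and their progenitors. Its signals were 7.35, 8.48, 7.31, 8.96 and 7.74, so that vector cells under SF and Epo stood above the 3 other arrays. The difference was −1.17 under SF and −1.22 under Epo. Of its other probe sets, 1 gave −1.22 and −0.45 and the other −0.10 and −0.20. HBD encodes delta globin, a minor adult beta-like globin. Its signals were 9.51, 10.01, 8.97, 9.89 and 9.17, and both DbSCL arrays lay below all vector arrays. The difference was −1.04 under SF and −0.72 under Epo, from a single probe set. Of the 6 globin and globin chaperone genes compared, HBD was the 1 past 1.5-fold, and the median was −0.19. Among the others, listed here after their values were seen, HBB differed by −0.31, HBQ1 by −0.28, HBZ by −0.10, HBE1 by 0.10 and the alpha globin chaperone gene AHSP by 0.22.

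ID2, HBD and PTPRC are 3 of the 7 genes of the 2-fold lower set that were also at least 1.5-fold lower under Epo, and 1 of the 3 carries an E-box and 1 a GATA motif just before its start. The 250 bases before the RefSeq start of each gene are shown on the strand of the gene, from the RefSeq table for GRCh38.p14, with matches to the motifs searched in capitals. ID2 lies on the plus strand (chr2:8681806-8682055), HBD on the minus strand (chr11:5234484-5234733) and PTPRC on the plus strand (chr1:198638790-198639039).
ID2: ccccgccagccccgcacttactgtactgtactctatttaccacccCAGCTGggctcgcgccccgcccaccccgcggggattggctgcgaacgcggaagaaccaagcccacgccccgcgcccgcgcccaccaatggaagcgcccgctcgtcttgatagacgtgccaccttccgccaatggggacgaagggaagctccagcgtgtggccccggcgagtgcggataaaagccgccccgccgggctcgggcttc
HBD: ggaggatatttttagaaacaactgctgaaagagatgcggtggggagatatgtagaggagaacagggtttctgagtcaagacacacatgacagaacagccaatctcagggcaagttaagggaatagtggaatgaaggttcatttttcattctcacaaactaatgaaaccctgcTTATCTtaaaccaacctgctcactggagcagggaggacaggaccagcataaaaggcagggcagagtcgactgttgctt
PTPRC: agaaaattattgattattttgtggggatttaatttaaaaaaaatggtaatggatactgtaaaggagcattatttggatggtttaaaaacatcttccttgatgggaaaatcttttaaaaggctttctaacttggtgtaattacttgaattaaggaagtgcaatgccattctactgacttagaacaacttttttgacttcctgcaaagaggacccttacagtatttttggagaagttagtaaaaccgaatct
The capitals in ID2 are the E-box CAGCTG, a palindrome, 200 to 205 bases before the start. Those in HBD read as the GATA motif AGATAA on the opposite strand and lie 73 to 78 bases before the start. The PTPRC window held none of the motifs searched. Of the 7 genes, those not shown were searched as well. NSL1 held a CAGCTG 83 to 88 bases before its start, and GTF2H5, ME1 and RCBTB1 held no match. A match is a description of letters, and a window without one says nothing about binding elsewhere.

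The same motifs were searched in the windows of all genes that had one. Those windows also hold bases after the start, so they are longer than the stretches shown above. The E-boxes searched were CAGATG and CAGGTG and the palindrome CAGCTG, on both strands. The GATA motifs were AGATAA or TGATAA, and the triplet CTG, part of an E-box, with GATA 7 or 8 bases away stood for the composite element of the SCL complex. That composite can overlap the other motifs. Of the 32 windows of 26 genes that were 2-fold lower, 34.4% held an E-box, against 39.4% of 10253 windows of all genes compared. A GATA motif was in 15.6% of these windows, 5 in number, against 9.77% of all windows. For the 46 genes 1.5-fold lower under both SF and Epo, with 77 windows of 41 genes, the shares were 42.9% for an E-box and 23.4% for a GATA motif. Among genes 1.5-fold lower under SF, 34.8% of 405 windows held an E-box and 13.6% a GATA motif, and among genes 1.5-fold higher 35.4% and 5.38% of 130 windows did. The composite element was in 3.12%, 3.9%, 2.47% and 2.31% of the windows of these 4 sets, against 2.57% of all windows. Windows of 1 gene can overlap, so their number is larger than the number of genes.

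The core genes of the SCL complex came first. The brightest TAL1 probe set gave 7.57, 8.31, 8.29, 8.59 and 8.31, a difference of −0.02 under SF, and another gave 0.06. Whether these probe sets read the DbSCL construct was not determined here, so they do not check the labels. LMO2, the bridging LIM-only protein, differed by −0.08 under SF and −0.37 under Epo, and LDB1, which links such complexes, by 0 and 0.11. GATA1, the erythroid GATA factor, gave 6.76, 6.87, 6.57, 6.76 and 6.69, a difference of −0.30. GATA2, which works earlier in progenitors, differed by −0.43, with −0.21 and −0.13 for its other probe sets. TCF12, an E protein gene, differed by −0.28. None of these 5 genes named after TAL1 reached 1.5-fold under SF.

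Of the 17 genes of the SCL complex and its partners that were compared, 4 were 1.5-fold lower, 1 was higher and the median was −0.08. Over all genes compared the shares were 3.68% lower and 1.42% higher. After quantile normalization or loess 3 genes of the list were lower and 1 was higher. With the mean or the median of all probe sets 2 were lower and 0 higher. The number of lower genes over all fell in these settings too, from 311 to 264, 306, 184 and 216 in that order. SSBP3, an LDB1-binding protein gene, read 6.54, 6.80, 6.10, 6.54 and 6.46, a difference of −0.70. FLI1, an ETS factor, read 5.63, 6.56, 5.86, 6.59 and 6.33, also −0.70, with 0 for its other probe set. TCF4, a further E protein gene, differed by −0.70, with −0.31 to −0.07 for 5 other probe sets, and the ETO family corepressor gene CBFA2T3 by −0.62. Under Epo the differences of SSBP3, FLI1 and TCF4 were −0.08, −0.26 and 0.00. The gene of this list that was higher, and the single gene 2-fold higher of all, was TCF3, which encodes the E proteins E12 and E47. The probe set that stood for TCF3 gave 10.00, 7.74, 9.62, 6.60 and 7.73, a difference of 1.88 under SF and 1.12 under Epo. The vector GM-CSF and DbSCL SF arrays were the high ones. For the gene's 10 other probe sets above the floor, the SF differences ran from −0.12 to 0.75. Its gene assignment comes from the platform annotation and was not checked against sequence, and without it 0 genes were 2-fold higher.

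KIT, the receptor of Steel factor, gave 6.79, 7.04, 6.33, 7.02 and 6.62. It was thus lowest in DbSCL cells under SF, with a difference of −0.70 under SF and −0.40 under Epo. Of the 18 compared genes of KIT and its proximal signalling, 3 were 1.5-fold lower, 0 were higher and the median was −0.04. LYN, a Src family kinase gene, read 9.36, 9.58, 8.84, 9.83 and 8.99, and both DbSCL arrays lay below the 3 vector arrays. Its difference was −0.73 under SF and −0.84 under Epo, and its other probe sets gave −0.75 and −0.44 under SF. PTPN11, which encodes the phosphatase SHP2, differed by −0.61 under SF and −0.35 under Epo, with −0.53 for its other probe set under SF. The ligand gene KITLG was at the floor on all arrays. EPOR, the Epo receptor gene, differed by 0.39, with −0.08 to 0.26 for its 3 other probe sets. No gene of 11 of the Epo and GM-CSF receptors and JAK-STAT, or of 16 of the ERK immediate early and feedback genes, was past 1.5-fold, and of 10 STAT5 targets and feedback genes CCND2, a D-type cyclin gene, was lower (−0.62, with 0.02 for its other probe set).

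Genes of blood cell surfaces and erythroid function differed one by one rather than as lists. AQP3, an aquaglyceroporin gene of the red cell membrane, gave 10.65, 10.28, 9.01, 10.45 and 10.22. The DbSCL SF array stood more than 1 log2 below the 4 others, and the difference was −1.27 under SF and −0.23 under Epo. The 2 other AQP3 probe sets gave −0.02 and 0.00 on the same arrays. RHAG, a membrane protein of the Rh complex, differed by −0.63, with −0.12 and −0.04 for its others. Those were the 2 genes 1.5-fold lower among 20 of the erythroid membrane and carbonic anhydrases, whose median was 0.06 and of which 13 lay above 0. HEBP1, a haem-binding protein gene, was the 1 gene past 1.5-fold of 16 of haem synthesis and handling, with signals of 6.33, 6.89, 6.00, 7.39 and 5.99. It differed by −0.89 under SF and −1.40 under Epo. FCER1A, the alpha chain of the IgE receptor of mast cells and basophils, gave 6.59, 7.18, 6.37, 7.28 and 6.53, or −0.82 and −0.75. It was the 1 gene past 1.5-fold of the 9 listed mast cell and basophil genes, whose median was 0.17. KIT, at −0.70, was a marker of these cells as well but was counted with its signalling genes.

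Of 20 leukocyte and progenitor surface antigens, PTPRC and CD36 were 1.5-fold lower. CD36, a scavenger receptor of erythroid progenitors and platelets, differed by −0.69 under SF, with −0.77 for its other probe set, and by −1.53 under Epo, with −0.36. PLVAP, a protein of endothelial diaphragms, gave 6.92, 7.52, 6.31, 6.88 and 6.41, and differed by −1.21 under SF and −0.47 under Epo. ANGPT2, a ligand of the TIE2 receptor, gave 5.14, 6.07, 5.09, 6.12 and 5.00, and differed by −0.97 and −1.12. They were the 2 genes 1.5-fold lower of 12 endothelial and angiopoietin genes, whose median was −0.06, and 0.02 after quantile normalization. Of 11 genes of MHC class II and CD74, HLA-DPA1 was lower (−0.90 under SF and −1.29 under Epo, with −0.31 and −1.58 for its other probe set). HEPH, a copper oxidase of iron export that was in no list, gave 5.36, 5.97, 4.78, 6.00 and 5.46, a difference of −1.19. None of 14 erythroid and myeloid transcription factors, 10 genes of iron uptake, storage and release, 10 megakaryocyte genes, 8 monocyte and granulocyte genes, 11 lymphoid genes, 10 fibroblast genes, 16 integrins and 14 genes of the BCL2 family was past 1.5-fold.

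**Figure D2:**
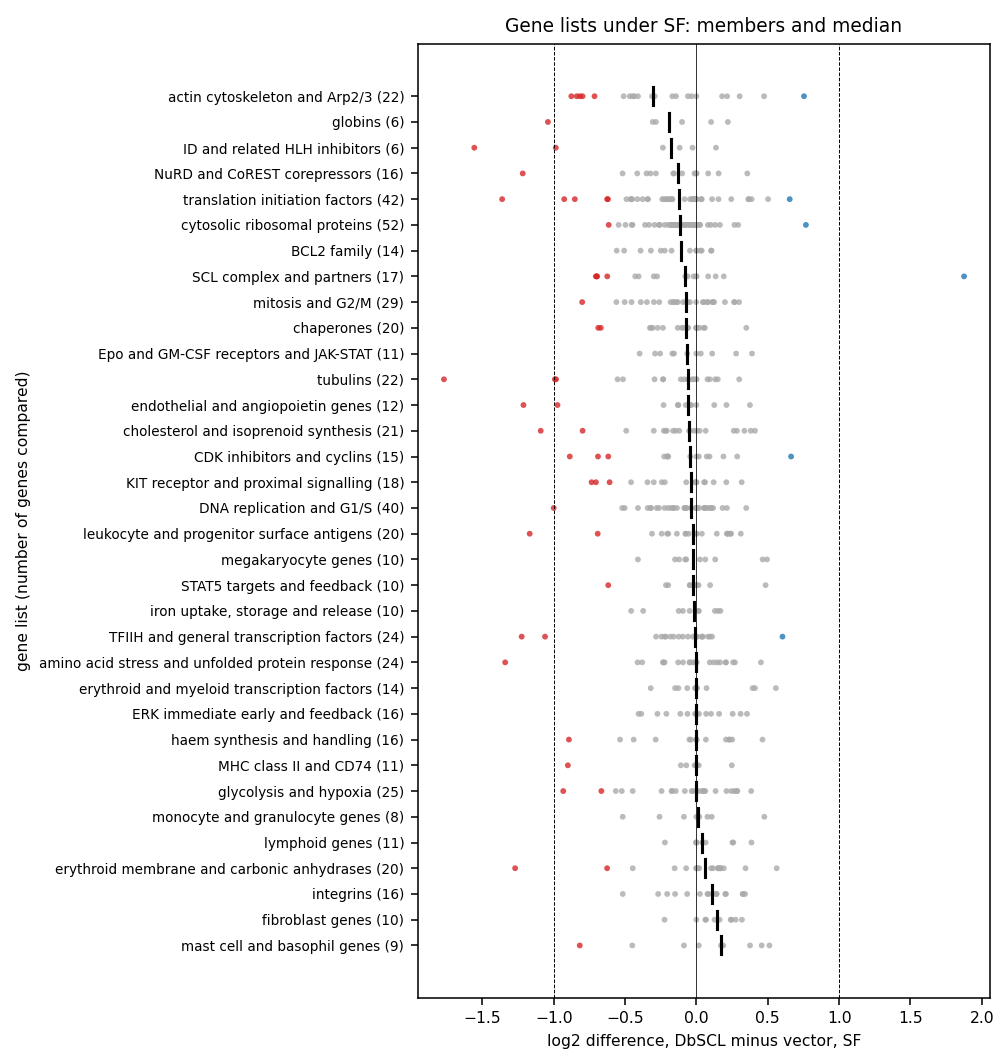
Log2 differences between DbSCL and vector cells under SF (horizontal axis) for the compared members of each gene list, with the list median as a black bar and members 1.5-fold or more lower in red or higher in blue. Most list medians lie near 0, the lowest by these brightest probe sets being that of actin cytoskeleton and Arp2/3 at −0.30, a rank it loses with the mean or the median of all probe sets.

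By the brightest probe set of each gene, a tubulin gene had the lowest value. TUBB2A, a beta-tubulin gene, gave 9.68, 9.93, 8.16, 9.33 and 9.19. DbSCL cells under SF stood apart from the 4 other arrays, and the difference was −1.77 (3.41-fold lower) under SF and −0.14 under Epo. TUBB2B, its close paralogue, gave 9.86, 9.99, 8.996, 9.61 and 9.25, a difference of −0.99 under SF and −0.37 under Epo. The sequences of these paralogues are near-identical, so their probe sets may not be independent. TUBA1A, an alpha-tubulin gene, gave 7.40, 7.49, 6.50, 7.57 and 7.32, or −0.98 and −0.25. These 3 were the 1.5-fold lower genes of 22 tubulins, with 0 higher and a median of −0.06, so most tubulin genes differed little.

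Among actin genes the shift was wider. Of 22 genes of the actin cytoskeleton and Arp2/3, 5 were 1.5-fold lower, 1 was higher and the median was −0.30. With the mean of all probe sets of a gene 4 were lower and with the median 3, and 0 were higher in both settings. With the other scalings and the other choices of probe set the list median ran from −0.35 to −0.18. It was the lowest of the 34 lists by the brightest probe sets, but when all probe sets of a gene were averaged the medians of ID and related inhibitors (−0.22) and of chaperones (−0.21) were lower than its −0.19, and with the median of all probe sets they were lower too (−0.46 and −0.19 against −0.18). ACTR3, the Arp3 subunit that helps start actin branches, gave 11.21, 11.68, 10.84, 11.79 and 11.19, a difference of −0.84 under SF and −0.60 under Epo. ARPC3 of the same complex differed by −0.88 and ARPC2 by −0.80, while ARPC4 was higher by 0.75. The 2 other ARPC2 probe sets gave −0.19 and 0.09. TMSB4X, the monomer-binding thymosin beta 4 gene, differed by −0.82, and the intermediate filament gene VIM by −0.71 under SF and −0.72 under Epo. Under Epo the list median was −0.01, with 3 genes 1.5-fold lower and 1 higher. The brightest probe set of ACTB differed by −0.17, and the beta-actin control probe sets by the −1.52 to −0.08 given above. The part of that end difference in the list was not tested.

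Of the genes of transcription and chromatin named in this part, all but GTF2H4 were lower under SF. GTF2H1, the p62 subunit of TFIIH, gave 6.27, 6.63, 5.41, 6.83 and 6.91, and GTF2H5, its smallest subunit, gave 6.27, 7.27, 6.21, 7.44 and 6.82. Under SF they differed by −1.22 and −1.06, and under Epo by 0.08 and −0.61. The second GTF2H1 probe set gave 0.09 under SF and −0.69 under Epo. They were the 2 lower genes of 24 of TFIIH and general transcription factors, whose median was −0.01, and a further TFIIH gene, GTF2H4, was higher by 0.60. It fell short of 1.5-fold after quantile normalization (0.584), median centring (0.553) and loess (0.565), where 0 genes of the list were higher. With the mean or the median of all probe sets 1 gene of the list was lower and 1 higher. MTA1, a subunit of the NuRD corepressor, gave 6.64, 7.38, 6.16, 6.65 and 7.09. It differed by −1.22 under SF and 0.44 under Epo, while its second probe set gave 0.00 and −0.08. MTA1 was the 1 gene past 1.5-fold of 16 of NuRD and CoREST corepressors (median −0.13). HIPK1, a nuclear kinase gene, gave 5.02, 6.31, 4.93, 6.17 and 5.82, a difference of −1.38 where its second probe set gave 0.00. MBD4, a glycosylase of mismatches at methylated sites, gave 6.98, 7.85, 6.84, 7.55 and 7.55, a difference of −1.01 under SF and 0.00 under Epo. Its other probe sets gave −0.34 and −0.31 under SF, and −1.15 and −0.01 under Epo. SREK1 (−1.09) and SCAF8 (−1.06), RNA processing genes with 1 probe set each, differed by 0.01 and −0.28 under Epo.

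DENR, a factor of translation reinitiation, gave 7.62, 8.19, 6.83, 8.40 and 8.06, and differed by −1.36 under SF and −0.34 under Epo. Of 42 translation initiation factors, 5 were 1.5-fold lower, 1 was higher and the median was −0.13, beside −0.12 under Epo. EIF4E, which binds the mRNA cap, gave 6.67, 7.32, 6.39, 7.49 and 7.23, a difference of −0.93, with −0.98 and −0.34 for its other probe sets. EIF2S3 of the initiator tRNA complex differed by −0.85, EIF1AX by −0.63 and EIF4G2 by −0.62. EIF5A was higher by 0.65, while its other probe sets ran from −0.58 to 0.66. Of 52 cytosolic ribosomal protein genes, RPS25 was lower (−0.61), RPLP2 was higher (0.77, its second probe set 0.53) and the median was −0.11. Of 20 chaperones, DNAJA2 (−0.69) and HSPH1 (−0.67) were lower, with a median of −0.08, and 0.01 after quantile normalization.

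Of the cell division genes, STIL, a centriole duplication gene, gave 6.31, 6.68, 5.57, 6.66 and 6.75, a difference of −1.10 under SF and 0.09 under Epo. NSL1, a kinetochore gene, gave 8.69, 9.31, 8.29, 9.43 and 8.83, or −1.02 and −0.60. NUP43, of the nuclear pore and the mitotic kinetochore, gave 7.80, 8.15, 7.09, 7.83 and 8.06, or −1.07 and 0.24. Of 29 genes of mitosis and G2/M, NDC80 was 1.5-fold lower (−0.80), with a list median of −0.08, and 0.03 after quantile normalization. Of 40 genes of DNA replication and G1/S, RRM2, a ribonucleotide reductase subunit gene, was lower (−0.9998), while its other probe set gave 0.21 and the list median was −0.04. Of 15 CDK inhibitors and cyclins, CCNA2 (−0.89), CDKN1B (−0.69) and CCND2 were lower and CCNE1, the G1/S cyclin E1 gene, was higher (0.66).

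SLC38A6, an amino acid transporter gene, gave 5.75, 6.69, 5.35, 6.44 and 5.91, a difference of −1.34 under SF and −0.53 under Epo. It was the 1 gene past 1.5-fold of 24 in the list for amino acid stress and unfolded proteins. ME1, cytosolic malic enzyme, which makes NADPH, gave 6.66, 7.42, 6.36, 7.68 and 7.04, or −1.05 and −0.64. MSMO1, a sterol oxidase gene, gave 5.71, 6.00, 4.91, 6.10 and 6.12, or −1.09 and 0.02, and HMGCS1, the HMG-CoA synthase gene, differed by −0.80 and −0.05. These were the 2 lower genes of 21 of cholesterol and isoprenoid synthesis (median −0.05). The pyruvate kinase gene PKM (−0.93) and the glucose transporter gene SLC2A3 (−0.67) were the 2 lower genes of 25 of glycolysis and hypoxia (median 0).

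CCDC47, a protein of the endoplasmic reticulum, gave 8.26, 9.03, 7.69, 8.69 and 8.76, a difference of −1.34 under SF and 0.07 under Epo. CHMP5 of the ESCRT-III membrane machinery differed by −1.18, with −0.29 for its second probe set. NSMAF, a regulator of neutral sphingomyelinase, gave 8.83, 9.54, 8.37, 9.64 and 9.13, or −1.17 and −0.51. The other lower genes were RCBTB1 (−1.11 under SF and −0.88 under Epo), KLHDC10 (−1.21 and 0.31), SH3BGRL (−1.12 and −0.27), CMTM6, a partner of PD-L1 (−1.08 and −0.38), and the cell polarity gene LIN7C (−1.02 and 0.00). RCBTB1 was the one gene of these whose signals, 5.09, 6.31, 5.20, 6.56 and 5.68, put vector GM-CSF below DbSCL SF. For KLHDC10 the 3 other probe sets gave −0.07 to 0.07, and for SH3BGRL the other gave −0.18.

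How firmly a single gene can be read was described by its other probe sets, which read other stretches of the same transcripts on the same 2 arrays. Of the 29 lower genes, 19 had a single probe set above the floor and 10 had several. Those 10 had 15 other probe sets, of which 2 were 1.5-fold lower, in ID2 and PTPRC, and 13 lay within 0.35 of 0, with a median of −0.07. Counted by probe set, 49 of 11992 were 2-fold lower (0.409%) and 3 were 2-fold higher (0.025%). Of the 49, 20 were not the brightest of their gene, and they add 18 genes whose brightest probe sets had a median of −0.08 and ran from −0.98 to 0.35. The lowest of these, picked after their values were seen, were MAFF, a small Maf factor gene (−2.14, brightest −0.08), YWHAZ, a 14-3-3 gene (−1.52, brightest 0.08), and the enolase gene ENO1 (−1.49). ENO1 also held a probe set that was higher (1.32), while its brightest gave 0.13. HIP1R gave 1.03, with 0.02 for its brightest probe set. Under Epo the 20 probe sets had a median of −0.24, and 0 were 2-fold lower. The 3′ to 5′ gap of the beta-actin and GAPDH controls was wider on DbSCL SF, as given above, and its part in these within-gene differences was not tested.

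Some genes were lower in all of their probe sets. Among 2466 genes with several probe sets above the floor the range of differences within a gene had a median of 0.25 and a 90th percentile of 0.65. In 16 of them (0.649%) every probe set was 1.5-fold or more lower, and in 0 every one was higher, while the brightest probe set alone gave 123 lower and 33 higher. PLAGL1, a zinc finger factor, gave −1.16 to −0.98 over 3 probe sets, and its brightest read 7.67, 8.31, 7.33, 8.72 and 7.88. TNFAIP8, a regulator of apoptosis, gave −0.83 and −0.80 and read 6.73, 7.29, 6.47, 7.32 and 6.99. RAD21, a cohesin subunit, gave −0.80 and −0.75 and read 6.17, 6.997, 6.20, 6.92 and 6.68. In PLAGL1 and TNFAIP8 the DbSCL SF array was the lowest of the 5, and in RAD21 it lay just above vector GM-CSF.

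The next genes by the smallest difference among their probe sets were RAB27A, a GTPase of secretory granules (−0.95 to −0.73), CD36 (−0.77 and −0.69), the G1/S factor gene E2F3 (−0.81 and −0.69) and the splicing regulator gene CELF2 (−0.78 to −0.68). ID2, LUC7L3 (−0.75 to −0.65) and LYPLA1 (−0.95 and −0.62) followed. Of the 16 genes, 6 were also 1.5-fold lower under Epo by their brightest probe set, and 2, ID2 and SNX4, in all probe sets. SNX4, a sorting nexin gene, gave −0.62 and −0.59 under SF and −0.89 and −0.87 under Epo. E2F3 differed between cytokines in its values, with 0.11 and 0 under Epo.

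**Figure D3:**
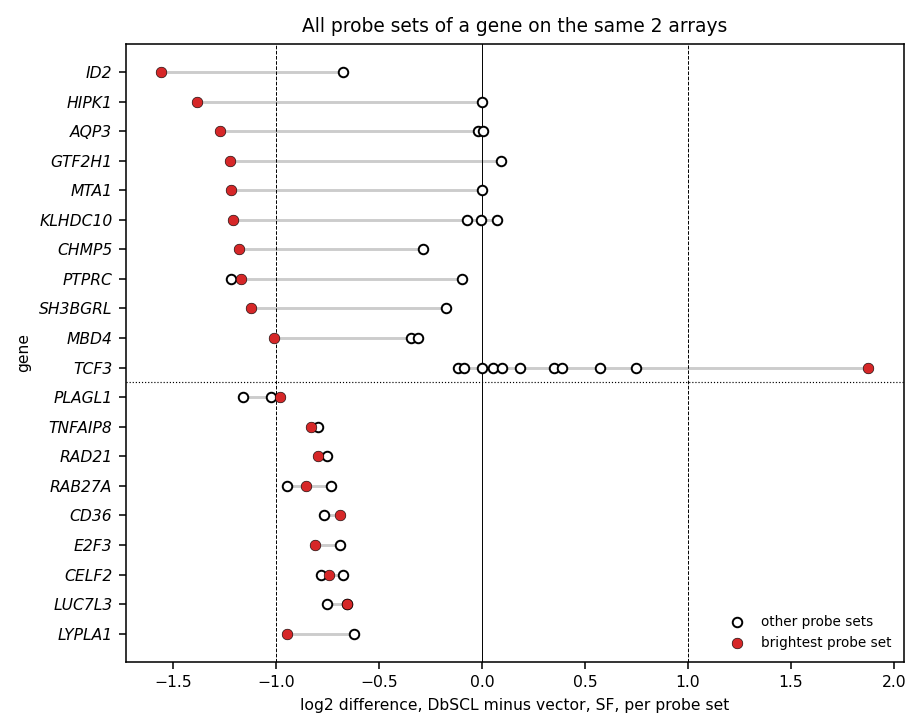
Log2 differences between DbSCL and vector cells under SF (horizontal axis) of every probe set above the floor, filled for the brightest and open for the others, for genes past 2-fold with several probe sets (upper block) and for 9 of the 16 genes whose probe sets were all 1.5-fold or more lower, the leading ones by their smallest difference (lower block, without ID2, which stands above). In the upper block the open points of HIPK1, AQP3, GTF2H1, MTA1 and KLHDC10 lie near 0, and in the lower block all points lie at −0.62 or lower.

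The contrast under Epo shares no array with the contrast under SF. Under Epo 23 genes were 2-fold lower (0.275% of 8359 genes), 232 were 1.5-fold lower (2.78%) and 58 were 1.5-fold higher (0.694%). Of the 29 genes lower under SF, 2 were 2-fold lower under Epo as well, ID2 and PTPRC, and 7 were 1.5-fold lower, the others being RCBTB1, HBD, ME1, GTF2H5 and NSL1. Their Epo differences had a median of −0.28 and ran from −1.49 to 0.44, with 19 below 0, 8 above and 2 at 0. Over all genes the median was 0. Of the 311 genes 1.5-fold lower under SF, 76.5% lay below 0 under Epo, against 45.4% of all genes. Of the 120 higher ones, 73.3% lay above 0, against 40.6%. Across 8272 genes, which share their arrays and are no replicates, Pearson's r between the SF and the Epo difference was 0.315 and Spearman's rho 0.294. Whether the effect of DbSCL differed between the cytokines was not tested.

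Genes 1.5-fold lower under both cytokines numbered 46 (0.539% of 8537 genes), which is 14.8% of those lower under SF and 19.8% of those lower under Epo. Genes 1.5-fold higher under both numbered 5 (0.0586%), or 4.17% and 8.62%. By the smaller of the 2 differences, ID2, PTPRC and TCF3 led, followed by ANGPT2, HLA-DPA1, HEBP1 and RCBTB1. Next came LXN, PLAGL1 (−0.98 and −0.84), STK26, BHLHE40 and SLC39A7. LXN, a carboxypeptidase inhibitor gene, gave 6.20, 6.92, 6.06, 7.40 and 6.33, or −0.85 under SF and −1.07 under Epo. STK26, a kinase of the germinal centre family, gave 7.94, 8.60, 7.60, 9.002 and 8.18, or −0.995 and −0.83. In LXN and STK26 vector cells under Epo were the highest and DbSCL cells under SF the lowest of the 5 arrays. SLC39A7, a zinc transporter gene, gave 6.82, 6.29, 7.08, 6.07 and 7.08 and was higher by 0.78 and 1.01. Of the 46 lower genes, 17 had several probe sets, and in 6 of these every other probe set was 1.5-fold lower under SF, while in 14 every other one was below 0.

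**Figure D4:**
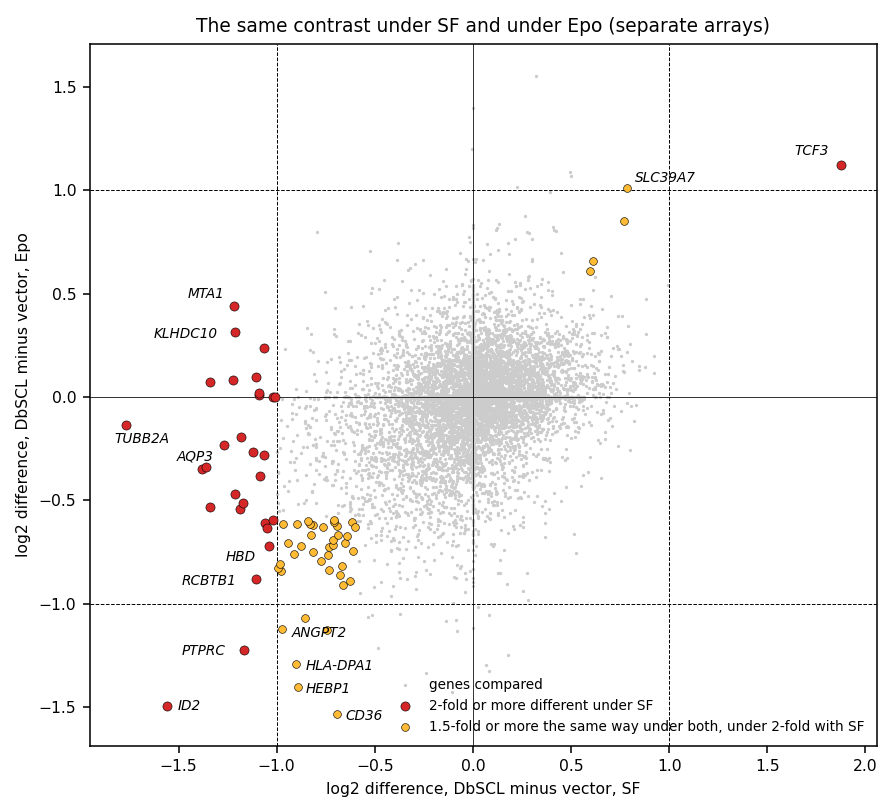
Log2 difference between DbSCL and vector cells under SF (horizontal axis) and under Epo (vertical axis), 1 point per gene, with dashed lines at 2-fold. ID2 and PTPRC lie below both lower lines and TCF3 beyond both upper ones, while TUBB2A and AQP3 lie near 0 on the vertical axis.

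The higher genes were weaker in signal than the lower ones. The 120 genes 1.5-fold higher had a median signal of 5.88 over the 5 arrays, against 6.78 for the 311 lower ones and 6.11 for all genes compared. Of the higher genes 83.3% had a mean signal below 7, against 57.9% of the lower and 72.8% of all. Over 10 bins of signal the median difference ran from 0.05 in the weakest bin to −0.06 in the brightest, and the share 1.5-fold lower from 0.355% to 6.51%. The highest genes short of 2-fold were named after their values were seen. RMND5B, of a ubiquitin ligase complex, gave 7.84, 6.99, 7.99, 6.54 and 7.08, a difference of 0.99 where its other probe set gave 0.11. GLI3, a Hedgehog pathway factor, gave 6.93, 6.25, 7.17, 6.22 and 6.33, or 0.92 under SF and 0.12 under Epo. In both genes vector GM-CSF and DbSCL SF were the high arrays. MS4A4A, a tetraspan membrane protein of myeloid cells, gave 7.03, 7.45, 8.33, 7.84 and 8.32, or 0.88 and 0.47. There both DbSCL arrays lay above the 3 vector arrays. The hybridization controls were also high on vector GM-CSF and DbSCL SF, at 10.53 and 10.57 against 10.02 on vector SF and 9.58 and 9.78 under Epo, and the part of this in the higher genes was not tested.

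**Figure D5:**
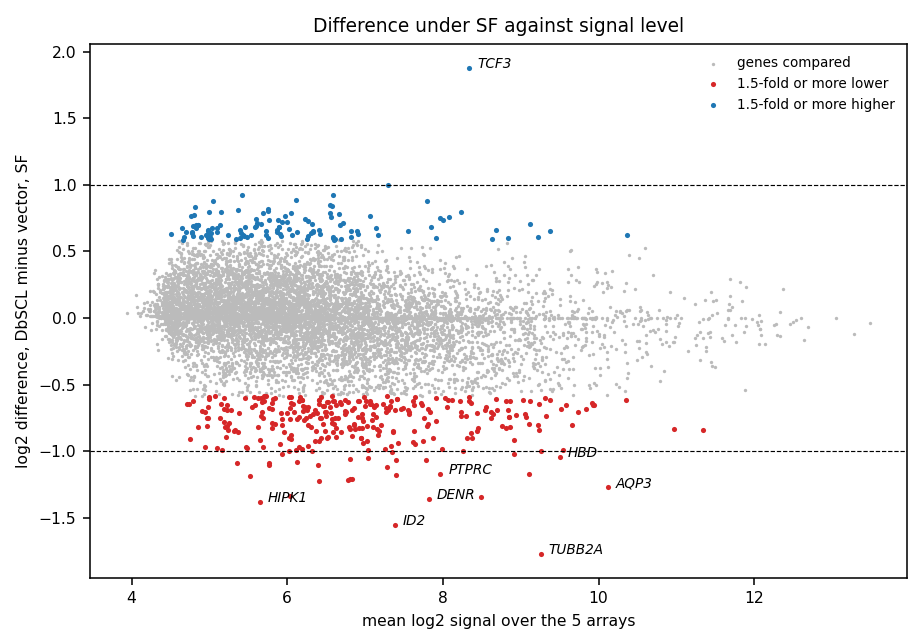
Log2 difference between DbSCL and vector cells under SF (vertical axis) against the mean log2 signal over the 5 arrays (horizontal axis), 1 point per gene compared, with genes 1.5-fold or more different in colour. Lower genes reach up to bright signals such as those of TUBB2A and AQP3, and most of the higher ones lie below a signal of 7.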

How the data were processed

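RNA of 5 TF-1 cultures was read on Affymetrix arrays, 1 per group, after labelling with the array maker's small sample protocol, per the labels' protocols. The deposited table holds 1 value per probe set and array, and that these are log2 signals was inferred from their range in the deposited table, 2.08 to 13.77; how the authors summarised and normalized them is not given in the sources used here. Values were used as deposited, without scaling. Column medians ran from 4.89 to 4.98. Of 22283 probe sets, 68 controls, 1043 with several symbols and 2107 with none in the platform annotation were left out of the gene comparisons. Where a gene had several probe sets, as 4310 did, the brightest by its mean on the 5 arrays represented it. Values under the 40th percentile, 4.45, were set to it, and a gene needed 1 of the compared arrays above it.

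Genes were called at 2-fold, with 1.5-fold as a lower tier. The spread of a difference was 1.4826 times the median absolute deviation of the SF difference minus the Epo difference, divided by the square root of 2, in 10 bins of signal; it leaves out shifts shared by an array. The genes named were those past 2-fold, the genes under study, up to 4 members of each list past 1.5-fold, the 12 leading genes of both cytokines and the 10 leading genes by all probe sets; others were named after their values were seen. The 34 lists hold 808 genes, of which 602 were compared. The members, the lists and the rule were chosen with earlier results of these data known. Alternatives were other scalings, floors, gene filters, probe set choices and folds. The counting was tested on simulated data, with planted changes larger than most of those called here. All probe sets of a gene moved together in it, so it does not check the calls near 2-fold. Python 3.11.15, numpy 2.4.6, pandas 2.3.3, scipy 1.17.1, statsmodels 0.14.6 and matplotlib 3.10.9 were used.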

Additional observations from a re-analysis of the deposited data

Results flagged for a closer look

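Of the 29 genes lower under SF, 8 lay above 0 under Epo, and in MTA1, KLHDC10 and NUP43 the Epo difference was also larger than the estimated spread of a single difference. MTA1 differed by −1.22 under SF and 0.44 under Epo, KLHDC10 by −1.21 and 0.31, and NUP43 by −1.07 and 0.24. The spread was 0.21 for MTA1 and KLHDC10 and 0.22 for NUP43, which NUP43 barely exceeded. The 5 others, CCDC47, GTF2H1, STIL, SREK1 and MSMO1, gave 0.01 to 0.09 under Epo by the brightest probe set. The second GTF2H1 probe set gave −0.69 under Epo. The difference between the cytokines was not tested, since each value rests on 1 array per group. Other probe sets of MTA1 and KLHDC10 gave −0.07 to 0.07 under SF. Under Epo the other MTA1 probe set gave −0.08 and those of KLHDC10 gave −0.18 to 0, so none of them was higher there. How many of all genes exceed their spread under Epo was not counted, so MTA1, KLHDC10 and NUP43 cannot be set against that share.

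Probe sets with several gene symbols or none were in no comparison above. Of the 1669 of them above the floor, 7 were 2-fold or more lower in DbSCL cells under SF and 4 were higher. Of the 11992 probe sets with a single symbol, 49 were lower and 3 higher, so the split was less one-sided among those left out. The lowest of the 7, annotated to SET, SETSIP and SETP4, gave 5.31, 6.48, 4.92, 5.52 and 5.39, in the same order of arrays, a difference of −1.56. The brightest of the 4, which has no symbol in the annotation, gave 11.24, 9.52, 10.99, 8.59 and 10.13, a difference of 1.47 under SF and 1.53 under Epo. On that probe set, as on the one that stood for TCF3, vector GM-CSF and DbSCL SF were the highest arrays.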

How the results depend on the processing

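With 1 array per group no result had a replicate check, and the number of arrays limits the precision. The 29 lower genes became 47 with each array centred on its median (29 shared), 18 with the mean of all probe sets of a gene (16 shared) and 311 at 1.5-fold. With the other scalings, floors, filters and probe set choices they numbered 23 to 36. They were 20 when every probe set had to be 1.5-fold lower. The 19 genes with a single probe set above the floor meet that rule by definition, and of the 10 with several only ID2 met it. The 1 higher gene became 3 after quantile normalization, 2 after loess, 120 at 1.5-fold, and 0 with the mean or the median of all probe sets or when every probe set had to be 1.5-fold different, a setting chosen after seeing the data. The 51 genes of both cytokines became 30 with the mean and 31 with the median of all probe sets. Of 765 differences of named genes under 9 settings, 701 moved by less than the spread and 61 by more, 59 of these by the choice of probe set. Another 3 changed sign with the median of all probe sets, AQP3 to 0.0049, KLHDC10 to 0.00066 and CCND2 to 0.02003. Many of these differences could hardly move, since other floors and filters leave brighter genes as they are and median centring shifts genes alike. With the mean of all probe sets 53 of the 85 named genes moved by less than the spread and 32 by more. With the median of all probe sets 55 moved by less and 27 by more. Genes with a single probe set on the array cannot move in those 2 settings. No paired analysis was possible because each group has 1 array, so that the groups share fewer than 2 replicate numbers.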

Other observations

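In 5 genes, CHERP, COX5B, ENO1, LSM4 and UBE3A, 1 probe set was 1.5-fold or more lower and another 1.5-fold or more higher in DbSCL cells under SF. CHERP, a calcium homeostasis protein gene, gave −0.90 by the brightest probe set and 0.59 by the other. COX5B, a cytochrome c oxidase subunit gene, gave −0.60 in 1 probe set and 0.74 in another, whose signals were 8.55, 7.71, 8.45, 6.83 and 7.68 on vector GM-CSF, vector SF, DbSCL SF, vector Epo and DbSCL Epo. The brightest COX5B probe set differed by −0.01. LSM4, an RNA-binding Sm-like protein gene, ran from −0.76 to 0.70 over 3 probe sets, and the ubiquitin ligase gene UBE3A from −0.59 to 0.60 over 5.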
